A study of Mus musculus with 12 samples.

Results

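The Polycomb complex genes described here are 10 genes of the 23230 in the expression table: Rnf2, Ring1, Bmi1, Pcgf6, Cbx2 and Rybp of Polycomb repressive complex 1 (PRC1), and Ezh1, Ezh2, Eed and Suz12 of Polycomb repressive complex 2 (PRC2). They were taken by name, and the family was chosen by the lower Rnf2 level in Zar1/2-null oocytes, so that the Rnf2 values between genotypes are given as a description without a test. The question put to the other 9 members was whether they share that decrease. Growing, fully grown germinal vesicle (GV) and ovulated (MII) oocytes of wild-type (WT) and Zar1/2-null females on a C57BL6/ICR hybrid background were profiled by Smart-seq2 RNA sequencing, and each of the 6 groups has 2 libraries made from 10 oocytes each. Growing oocytes came from females labelled as 13.5 days old, which the study's methods give as 12 days. GV oocytes came from 21-day-old females 44 h after PMSG, a gonadotropin that drives follicle growth, and MII oocytes from the oviduct 16 h after hCG, which triggers ovulation. The labels give no age or PMSG time for MII oocytes. In the study's methods, superovulated females also received PMSG, 44 h before hCG, and had the same age range as those used for GV oocytes. Zar1/2-null females carried CRISPR/Cas9 null alleles of both Zar1 and Zar2 (Zar1l in the table) in every cell, and WT females carried neither. The label MII states when ovulated oocytes were taken, and the labels do not say how far each Zar1/2-null oocyte had gone through meiosis. The paper reports that ovulated oocytes of null females were arrested at metaphase or telophase of the first meiotic division. The same meiotic stage therefore cannot be assumed for both genotypes at MII. The part of this arrest in the MII results below was not tested.

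Polycomb proteins keep genes silent through histone marks. PRC1 places a ubiquitin on histone H2A through its RING ligase, RNF2 or RING1, which works as a dimer with 1 PCGF protein such as BMI1 or PCGF6. CBX proteins bring PRC1 to the methyl mark on histone H3, whereas RYBP or YAF2 takes the place of the CBX protein in variant PRC1. PRC2 places that methyl mark through EZH2 or EZH1, and needs EED and SUZ12 to do so. Oocytes accumulate mRNAs while they grow, stop transcribing at full size, and remove many stored mRNAs during meiotic maturation. ZAR1 and ZAR2 are RNA-binding proteins of the oocyte.

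FPKM, the deposited unit, counts sequenced fragments corrected for transcript length and library depth, and was here multiplied for each library by a factor from the ERCC spike-in RNAs. Zar1l, a targeted gene, was at 503.98 to 643.99 FPKM in WT growing and GV libraries and at 13.2 to 20.9 FPKM in Zar1/2-null ones. At MII it was at 3.13 and 4.72 FPKM in WT and at 1.36 and 1.01 FPKM in Zar1/2-null libraries. Zar1, whose null allele is a small deletion that need not remove the mRNA, was at 603.3 and 725 FPKM in WT growing and 407 and 459.87 FPKM in Zar1/2-null growing libraries, but at 83.6 and 72.4 FPKM in WT MII and 189.6 and 194 FPKM in Zar1/2-null MII libraries. All 12 oocyte markers examined were at 1 FPKM or more in every group except WT MII, in which 11 were. Markers of granulosa and cumulus cells, 15 genes led by Cyp19a1, summed to 25.2 to 29.9 FPKM in WT growing libraries and 6.62 to 12.01 FPKM in Zar1/2-null growing libraries, to 13.8 to 16.4 and 11.6 to 13.3 FPKM at GV, and to 4.26 to 4.33 and 6.11 to 7.33 FPKM at MII. Cyp19a1 alone averaged 17.9 and 5.13 FPKM in WT and Zar1/2-null growing oocytes, and 3.93 and 6.44 FPKM at MII. Of the 15 genes, 5 reached 1 FPKM in a WT growing library, 2 in a Zar1/2-null growing library, 3 at GV and 1 at MII in either genotype. The part of these markers in the results below was not tested. In pooled oocytes, fewer intact oocytes in a library and less RNA per oocyte cannot be told apart.

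In the mm9 build Rnf2 lies at chr1:153316536-153347953, Ring1 at chr17:34157737-34161625, Bmi1 at chr2:18598645-18608256, Pcgf6 at chr19:47108109-47125380 and Rybp at chr6:100178560-100237435. Ezh2 lies at chr6:47480273-47545340, Eed at chr7:97103166-97129493, Suz12 at chr11:79806608-79847625, Ezh1 at chr11:101052429-101087777 and Cbx2 at chr11:118884276-118892584. Rybp has a copy at chr13:66108501-66112968 with 99.3% identity over all 4458 bases of its transcript, so that its level in uniquely mapped reads is uncertain. Suz12 has a copy of 683 bases on chromosome 13 with 96.1% identity, which is 15.6% of its transcript. No other member has a second locus with at least 95% identity over 200 bases, although Bmi1 has matches just under that limit, the longest on chromosome X with 94.8% identity over 2942 bases. Ezh2 and Suz12 overlap antisense noncoding genes over 174 and 178 exonic bases, and reads of a pair cannot be told apart because the libraries keep no strand.

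In oocytes the 3′ UTR of an mRNA sets much of its storage and translation, through the cytoplasmic polyadenylation element TTTTAT and the polyadenylation signal AATAAA. Both were searched for on the sense strand in the last 100 bases of 1 annotated transcript per member. TTTTAT was found in Rnf2 and Eed, and AATAAA in Bmi1, Cbx2, Rybp, Ezh1, Ezh2 and Eed. Ring1, Pcgf6 and Suz12 had neither. Of 10077 genes that passed the filter on low values and have a long enough 3′ UTR, 15.6% held TTTTAT and 65.7% held AATAAA in that window. The 30 bases around the motif are shown for Rnf2, the member with the lowest Zar1/2-null level relative to WT at GV and MII, for Eed, the only other member with TTTTAT, and for Ezh2, which has the signal AATAAA, with the motif in capitals.
Rnf2: gaatgtatgtgtTTTTATctgtctatggga
Eed: aagctgtgttatTTTTATtgtgatggaaac
Ezh2: ttttcaaatttgAATAAAgaatacttgaac
These are matches of letters in the annotated transcript and not measured sites.

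In WT oocytes the family was dominated by 1 paralog of each enzyme. In WT GV oocytes, Ezh2 had the highest level at 162 ± 16.3 FPKM (SD, n = 2), followed by Bmi1 at 131 ± 20.8, Pcgf6 at 131 ± 21.1, Eed at 107 ± 14.6, Suz12 at 65.7 ± 3.28 and Rnf2 at 44.8 ± 4.44 FPKM. Rybp at 17.7 ± 1.06, Cbx2 at 13.7 ± 0.421 and Ezh1 at 6.50 ± 0.183 FPKM followed, and Ring1 stood last at 0.161 ± 0.000812 FPKM. The ranges of mean ± SD overlapped between Ezh2 and Bmi1, between Bmi1 and Pcgf6, and between Pcgf6 and Eed, and not between later neighbours in this order. The ratio of Ezh2 to Ezh1 was 25.0 ± 3.22 in WT GV oocytes. Ring1 was under 1 FPKM in all 12 libraries, between 0 and 0.248 FPKM, so that it did not pass the filter of at least 1 FPKM in at least 1 library and was not tested. The other 8 members and Rnf2 passed, among 11502 genes that did.

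**Figure D1:**
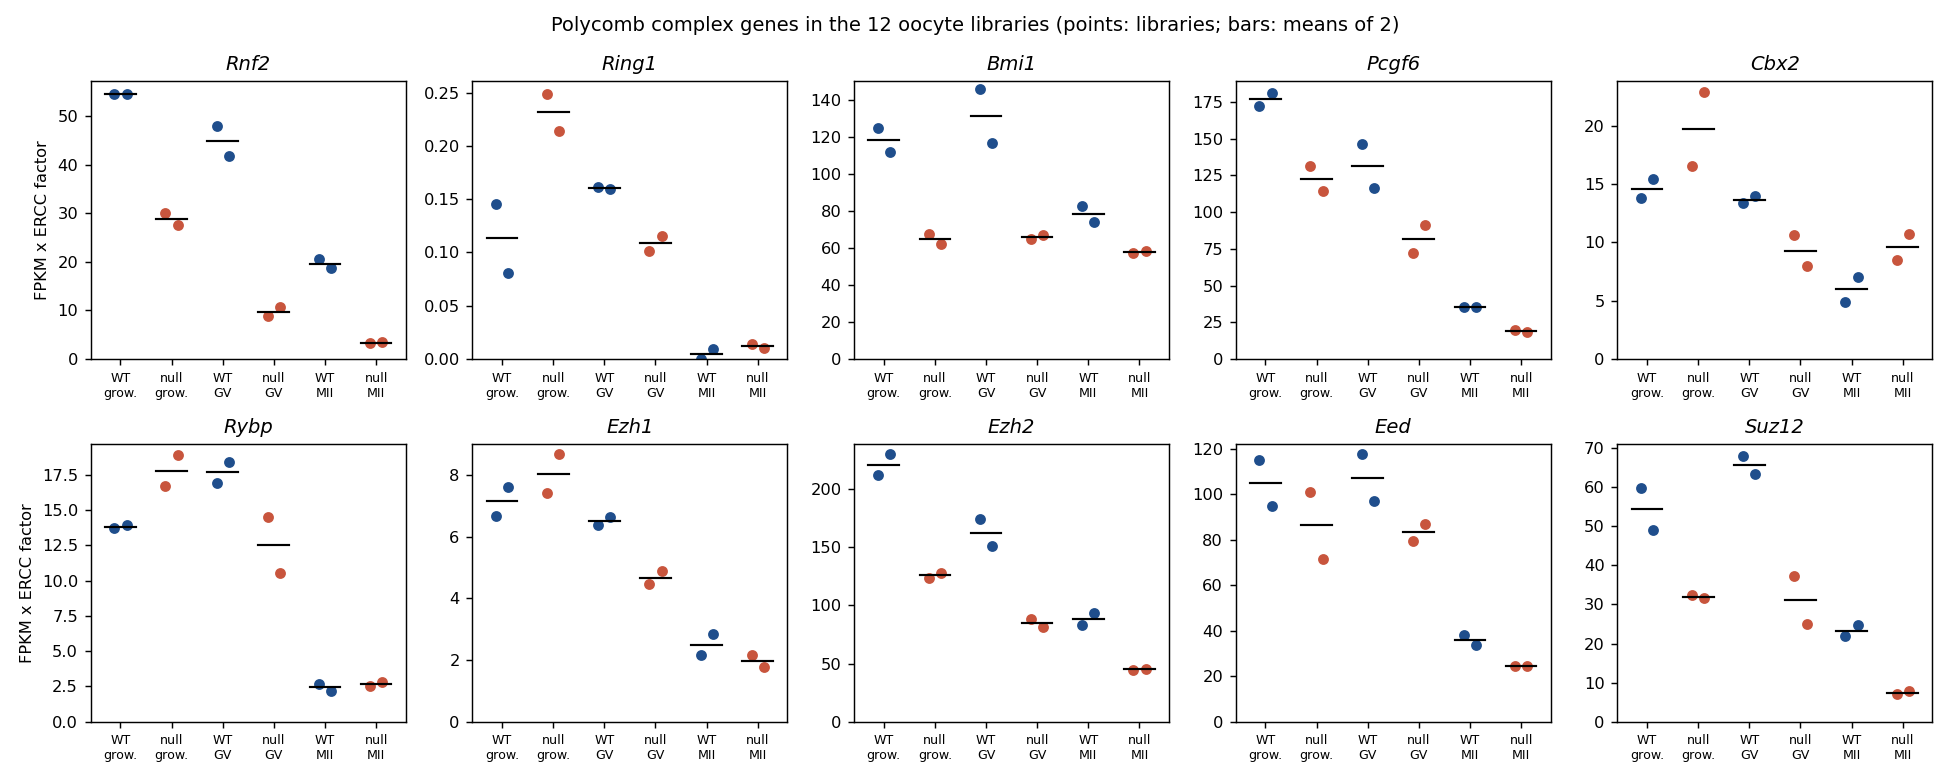
Deposited FPKM (multiplied by the ERCC factor, linear axes from 0, a separate scale for each gene) of the 10 Polycomb genes in each of the 12 libraries, WT in blue and Zar1/2-null in red, with the mean of each group of 2 as a bar. Rnf2, Bmi1, Pcgf6, Ezh2 and Suz12 were lower in both Zar1/2-null libraries than in both WT libraries at every stage, Cbx2 and Rybp were higher in Zar1/2-null growing libraries, and Ring1 stayed under 0.25 FPKM throughout.

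In growing oocytes, the decrease was shared by 4 of the 8 other members tested, 2 of PRC1 and 2 of PRC2: Bmi1, Ezh2, Suz12 and Pcgf6 fell in Zar1/2-null oocytes and no member rose. With the ERCC factors removed, or with the libraries set to equal medians instead, 2 members were called lower, and with equal medians Rybp was called higher (adjusted p = 0.0496, limma). Under these 2 scalings 12.3% and 11.9% of all genes were called lower, and with equal medians 15.8% were called higher. On the deposited values, 24.4% of all 11502 genes tested were called lower and 10.6% higher at this stage (limma, Benjamini-Hochberg adjusted p under 0.05). Rnf2 was at 54.4 and 54.6 FPKM in WT libraries and at 30.1 and 27.6 FPKM in Zar1/2-null libraries, 53.0% of WT. Bmi1, a PCGF partner of RNF2, was at 125 and 112 FPKM in WT and at 67.8 and 62.3 FPKM in Zar1/2-null libraries. The WT and Zar1/2-null libraries of both genes were well separated. The log2(FPKM + 1) difference of Bmi1 was -0.85 (SE 0.153, adjusted p = 0.00159, limma). Ezh2, the main methyltransferase of PRC2, was at 212 and 229.5 FPKM in WT and at 123 and 128 FPKM in Zar1/2-null libraries, a log2 difference of -0.81 (SE 0.143, adjusted p = 0.00145, limma). Suz12, the scaffold of PRC2, was at 59.7 and 49.0 FPKM in WT and at 32.4 and 31.7 FPKM in Zar1/2-null libraries, a log2 difference of -0.74 (SE 0.186, adjusted p = 0.0105, limma). These 3 genes lay at 55.0% to 58.9% of their WT level, close to the value of Rnf2.

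Pcgf6, the PCGF protein of a variant PRC1, was at 172 and 181 FPKM in WT and at 131 and 114 FPKM in Zar1/2-null growing libraries, a log2 difference of -0.53 (adjusted p = 0.0317, limma). Eed, which reads the methyl mark for PRC2, was at 115 and 94.9 FPKM in WT and at 101 and 71.6 FPKM in Zar1/2-null libraries. The libraries overlapped, and the 95% interval of its log2 difference ran from -0.71 to 0.12. Cbx2, the reader subunit of canonical PRC1, was at 13.8 and 15.4 FPKM in WT and at 16.5 and 22.9 FPKM in Zar1/2-null libraries, a log2 difference of 0.40 (95% interval -0.06 to 0.86). For Rybp the values were 13.7 and 13.9 FPKM in WT and 16.7 and 18.9 FPKM in Zar1/2-null libraries, a log2 difference of 0.34 (95% interval -0.02 to 0.70). Neither difference passed the test, although for both genes each Zar1/2-null library was above each WT library. Ezh1, the second methyltransferase, was at 6.67 and 7.62 FPKM in WT and 7.43 and 8.66 FPKM in Zar1/2-null libraries, which overlapped. The median log2 difference of the 8 tested members was -0.41, against -0.16 over all genes. Relative to that median of all genes, Bmi1 was at -0.69, Ezh2 at -0.65, Suz12 at -0.58 and Pcgf6 at -0.37. With the ERCC factors removed the calls of Bmi1 (log2 difference -0.57) and Ezh2 (-0.52) were kept, and those of Suz12 (-0.46) and Pcgf6 (-0.24) were lost, leaving 2 members. The call of Suz12 was also lost without WT growing replicate 1 (adjusted p = 0.0914, limma) or Zar1/2-null growing replicate 2 (0.0589), and that of Pcgf6 without either WT growing library (0.0970 and 0.136) or without Zar1/2-null growing replicate 2 (0.190).

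In GV oocytes, 6 of the 8 other members tested fell in Zar1/2-null oocytes (2 with the ERCC factors removed and 1 with equal medians) and none rose, at a stage when 40.6% of all genes were called lower and 2.83% higher. With the factors removed 13.5% of all genes were called lower, and with equal medians 11.4%. Rnf2 was at 47.9 and 41.7 FPKM in WT and at 8.81 and 10.7 FPKM in Zar1/2-null libraries, 21.8% of WT. No other member was as low relative to WT: the next were Suz12 at 47.4%, Bmi1 at 50.3% and Ezh2 at 52.4%. Suz12 was at 68.1 and 63.4 FPKM in WT and at 37.2 and 25.1 FPKM in Zar1/2-null libraries, a log2 difference of -1.08 (SE 0.186, adjusted p = 0.00106, limma). For Bmi1, WT libraries were at 146 and 117 FPKM and Zar1/2-null libraries at 64.9 and 67.3 FPKM, a log2 difference of -0.97 (SE 0.153, adjusted p = 0.000638, limma). Ezh2 was at 174 and 151 FPKM in WT and at 88.5 and 81.7 FPKM in Zar1/2-null libraries, a log2 difference of -0.92 (SE 0.143, adjusted p = 0.000571, limma). The Zar1/2-null libraries of these 3 genes lay far under the WT libraries.

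The remaining 3 members called at GV had smaller differences. Pcgf6 was at 146 and 116 FPKM in WT and at 72.1 and 91.3 FPKM in Zar1/2-null libraries (log2 difference -0.68, adjusted p = 0.00822, limma). Rybp was at 16.9 and 18.4 FPKM in WT and 14.5 and 10.5 FPKM in Zar1/2-null libraries (-0.48, adjusted p = 0.0333, limma), and Ezh1 at 6.37 and 6.63 FPKM against 4.46 and 4.87 FPKM (-0.41, adjusted p = 0.0458, limma), and both turned slightly positive with equal medians (0.025 and 0.049). Cbx2, at 13.4 and 14.0 FPKM in WT and 10.6 and 7.95 FPKM in Zar1/2-null libraries, did not pass (95% interval of the log2 difference -0.98 to -0.06, adjusted p = 0.0637, limma). Eed was at 117 and 96.9 FPKM in WT and 79.3 and 87.0 FPKM in Zar1/2-null libraries (95% interval -0.77 to 0.06). On the deposited values the genotypes were separate for each of these 5 genes, with both Zar1/2-null libraries lower. Without the ERCC factors, Pcgf6 alone among them kept that order. Rybp, Ezh1 and Cbx2 then overlapped between genotypes, and both Zar1/2-null libraries were the higher ones for Eed. The share of all genes separated in this way was not counted.

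At GV the ERCC factors of Zar1/2-null libraries were smaller than those of WT libraries, 0.533 and 0.583 against 0.836 and 0.697, and the median log2 difference of all genes was -0.38. Relative to that median Suz12 was at -0.70, Bmi1 at -0.59, Ezh2 at -0.54 and Pcgf6 at -0.30, whereas Rybp at -0.11 and Ezh1 at -0.03 were close to it. With the ERCC factors removed, Bmi1 (log2 difference -0.52, adjusted p = 0.0123, limma) and Ezh2 (-0.47, adjusted p = 0.0287) remained called, Suz12 was at -0.64 with an adjusted p of 0.0503, and Eed turned to 0.092. Rnf2 was at -2.09 as deposited and at -1.69 without the factors. Among the calls at GV, Pcgf6 was lost without WT GV replicate 1 (adjusted p = 0.0759, limma) or Zar1/2-null GV replicate 1 (0.0571). That of Rybp was lost without either WT GV library (0.0799 and 0.120) or Zar1/2-null GV replicate 2 (0.201), and that of Ezh1 without any of 8 single libraries (0.0563 to 0.152), each of the 4 at GV, both WT growing and both Zar1/2-null MII libraries.

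In MII oocytes, Suz12, Ezh2 and Pcgf6 fell in Zar1/2-null oocytes and Cbx2 rose, 3 and 1 of the 8 members tested, whereas 10.3% of all genes were called lower and 21.5% higher. Rnf2 was at 20.5 and 18.7 FPKM in WT and at 3.28 and 3.48 FPKM in Zar1/2-null libraries, 17.2% of WT. Suz12 followed at 32.1%, with 21.8 and 24.6 FPKM in WT and 7.08 and 7.85 FPKM in Zar1/2-null libraries and a log2 difference of -1.52 (SE 0.186, adjusted p = 7.36e-05, limma). Ezh2 was at 83.1 and 93.0 FPKM in WT and at 44.8 and 44.9 FPKM in Zar1/2-null libraries (log2 difference -0.95, SE 0.143, adjusted p = 0.000332, limma). Pcgf6 was at 35.4 and 35.1 FPKM in WT and at 19.9 and 18.1 FPKM in Zar1/2-null libraries (-0.86, SE 0.169, adjusted p = 0.00219, limma). Replicates of these genes lay close together and the genotypes far apart.

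Cbx2 went the other way at MII, with 4.92 and 7.06 FPKM in WT and 8.48 and 10.7 FPKM in Zar1/2-null libraries, a log2 difference of 0.61 (95% interval 0.15 to 1.07, adjusted p = 0.0463, limma). This call was lost with the ERCC factors removed (log2 difference 0.44, adjusted p = 0.196, limma) and without any of 7 single libraries (0.0603 to 0.311), both WT growing, both WT GV, both Zar1/2-null MII and WT MII replicate 1. Bmi1 was at 82.8 and 74.4 FPKM in WT and 57.5 and 58.4 FPKM in Zar1/2-null libraries (log2 difference -0.43, adjusted p = 0.0522, limma), and Eed at 38.1 and 33.5 FPKM against 24.5 and 24.6 FPKM (-0.53, adjusted p = 0.0539, limma). Both genes had separate libraries and missed the threshold. Ezh1, at 2.16 and 2.84 FPKM in WT and 2.15 and 1.76 FPKM in Zar1/2-null libraries, and Rybp, at 2.67 and 2.19 against 2.54 and 2.83 FPKM, had 95% intervals of -0.57 to 0.09 and -0.25 to 0.47 on the log2 scale. The median log2 difference of the 8 members was -0.48 against 0.06 over all genes. Relative to the median of all genes Suz12 was at -1.58, Ezh2 at -1.01, Pcgf6 at -0.92 and Cbx2 at 0.55. At this stage removing the ERCC factors raised the number of members called lower to 6, and the share of all genes called lower to 23.4%, adding Bmi1 (log2 difference -0.68), Eed (-0.78) and Ezh1 (-0.53).

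**Figure D2:**
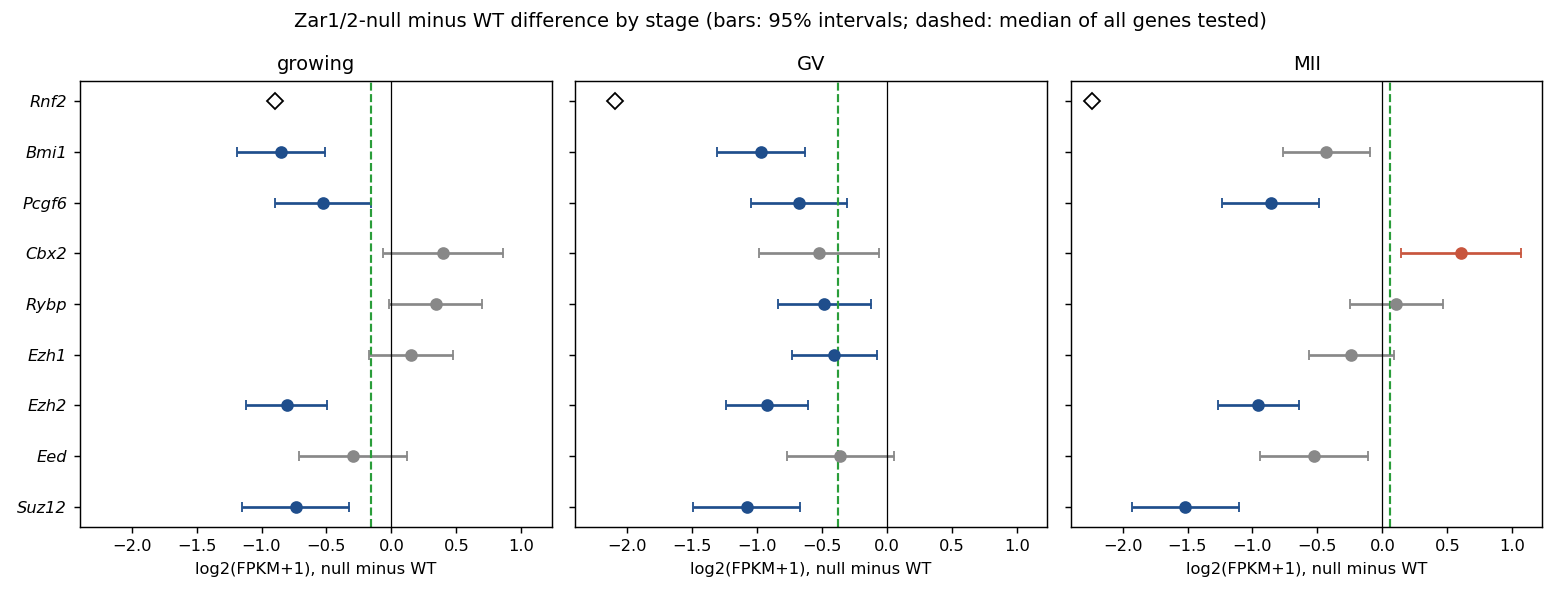
Zar1/2-null minus WT difference in log2(FPKM + 1) on the deposited, ERCC-scaled values for growing, GV and MII oocytes. Filled points are the 8 tested members with 95% limma intervals (blue, called lower; red, called higher; grey, not called), the open diamond is Rnf2 without an interval because the family was chosen by it, and the dashed green line is the median of all genes tested; Ezh2, Suz12 and Pcgf6 were called lower at all 3 stages, while with the ERCC factors removed Eed at GV and Rybp at MII took the opposite sign.

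Ratios of members within a library do not depend on any scaling between libraries. Rnf2 per Bmi1 was 0.436 and 0.489 in WT growing and 0.444 and 0.443 in Zar1/2-null growing libraries, so that the genotypes overlapped. At GV it was 0.328 and 0.357 in WT against 0.136 and 0.160 in Zar1/2-null libraries, and at MII 0.247 and 0.252 against 0.0570 and 0.0597. Rnf2 per Ezh2 followed the same course, with 0.247 ± 0.0134 and 0.230 ± 0.0204 (SD, n = 2) in WT and Zar1/2-null growing oocytes, 0.276 ± 0.000408 and 0.115 ± 0.0224 at GV, and 0.224 ± 0.0318 and 0.0753 ± 0.00306 at MII. Rnf2 made up 7.12% of the summed FPKM of the 10 members in WT growing oocytes and 5.70% in Zar1/2-null ones, 6.59% and 2.55% at GV, and 6.73% and 1.97% at MII. Pcgf6 per Bmi1 was 1.38 and 1.62 in WT growing and 1.93 and 1.83 in Zar1/2-null growing libraries. At GV it was 1.00 and 0.997 against 1.11 and 1.36, and at MII 0.427 and 0.472 against 0.345 and 0.310. Rnf2 per Pcgf6 was 0.316 and 0.301 in WT growing and 0.229 and 0.242 in Zar1/2-null growing libraries. It was 0.328 and 0.358 against 0.122 and 0.118 at GV, and 0.579 and 0.533 against 0.165 and 0.192 at MII. Relative to WT, Rnf2 was down in proportion to Bmi1 and Ezh2 in growing oocytes, but further down than Pcgf6. At GV and MII it was further down than all 3, which only describes the gene whose decrease chose the family.

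Within PRC2 some ratios also differed between genotypes. Ezh2 per Ezh1 was 31.8 and 30.1 in WT growing and 16.6 and 14.8 in Zar1/2-null growing libraries, 27.3 and 22.7 against 19.8 and 16.8 at GV, and 38.6 and 32.8 against 20.9 and 25.5 at MII. The Zar1/2-null libraries were lower than the WT libraries at each stage without overlap. Suz12 per Eed, a pair of the PRC2 core, was 0.519 and 0.516 in WT growing and 0.320 and 0.443 in Zar1/2-null growing libraries, 0.579 and 0.655 against 0.469 and 0.289 at GV, and 0.572 and 0.735 against 0.289 and 0.319 at MII. The Suz12 to Eed ratios were lower in both Zar1/2-null libraries at every stage, but their spread at GV was wide. Suz12 per Ezh2 overlapped between genotypes in growing oocytes (0.282 and 0.213 in WT, 0.263 and 0.247 in Zar1/2-null libraries) and at GV (0.391 and 0.420, 0.420 and 0.307). At MII it was 0.262 and 0.265 against 0.158 and 0.175. With 2 libraries a group, an exact permutation test cannot reach 0.05 for a ratio, and none was run. Eed, a member of the PRC2 core, missed the threshold at each stage in this fit, and at MII its adjusted p of 0.0539 ran from 0.0013 to 0.236 over the alternatives (limma).

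**Figure D3:**
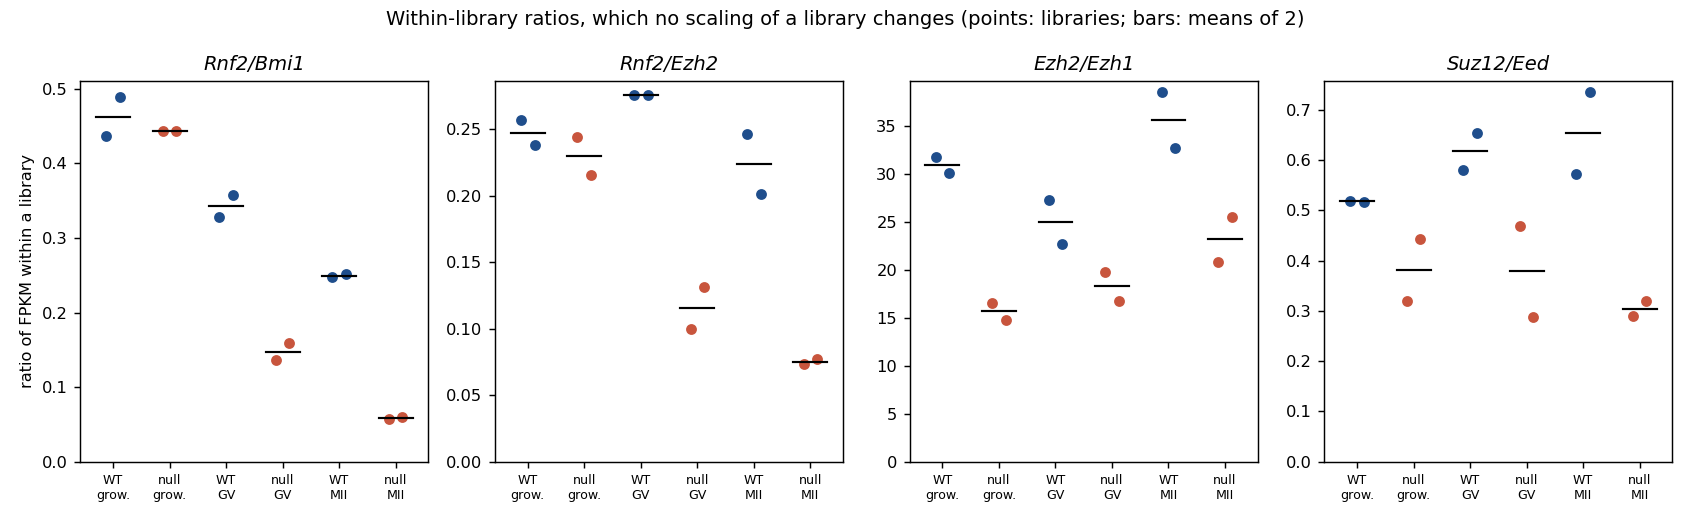
Ratios of FPKM between 2 members within each of the 12 libraries (linear axes from 0), WT in blue and Zar1/2-null in red, with the mean of each group of 2 as a bar. Rnf2/Bmi1 and Rnf2/Ezh2 overlapped between genotypes in growing oocytes and were separate at GV and MII, while Ezh2/Ezh1 and Suz12/Eed were lower in both Zar1/2-null libraries at all 3 stages.

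Whether the effect of the null genotype differed between stages was tested with an interaction term. From GV to MII it differed for Cbx2 among the 8 members, by 1.13 on the log2 scale (95% interval 0.48 to 1.78, adjusted p = 0.0136, limma), while 34.6% of all genes were called in either direction with a median shift of 0.48. From growing to GV it differed for Rybp, by -0.82 (95% interval -1.33 to -0.32, adjusted p = 0.0388, limma), against 13.9% of all genes. Cbx2 was at -0.92 for that step (95% interval -1.57 to -0.27, adjusted p = 0.0635, limma). With the ERCC factors removed neither Cbx2 from GV to MII nor Rybp from growing to GV passed. The Cbx2 call was also lost without WT MII replicate 1 (difference 0.91, adjusted p = 0.0620, limma) or Zar1/2-null MII replicate 2 (0.98, 0.0547), and the Rybp call without any of 10 single libraries, with adjusted p between 0.0522 and 0.123. For Bmi1, Ezh2, Pcgf6, Eed and Suz12 the differences between stages did not pass in either step on the deposited values. With the factors removed, the Zar1/2-null effect was more negative at MII than at GV for Suz12 (-1.20), Pcgf6 (-0.89), Eed (-0.87) and Ezh2 (-0.73), with adjusted p of 0.0128, 0.00214, 0.0128 and 0.0166 (limma). At that scaling the effect was called more negative for 6.46% of all genes and more positive for 15.1%.

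From growing to GV WT oocytes, Ezh2 was the member called lower on the deposited values, from 221 ± 12.5 to 162 ± 16.3 FPKM (log2 difference -0.44, adjusted p = 0.0369, limma), 1 of the 8 members tested, and none rose, whereas 28.7% of all genes were called lower and 2.77% higher. Pcgf6 was at -0.44 (adjusted p = 0.0695, limma). The call of Ezh2 was lost without either WT growing library (adjusted p = 0.0850 and 0.190, limma) or WT GV replicate 2 (0.193), and with the ERCC factors removed, when Bmi1 was called higher instead (log2 difference 0.53). The median of the 8 members was -0.03 against -0.29 over all genes as deposited, and 0.35 against 0.02 with the factors removed, when Rybp was at 0.70, Suz12 at 0.66 and Eed at 0.42 without a call. In Zar1/2-null oocytes the mean GV level was 33.9% of the growing level for Rnf2, against 82.2% in WT. Bmi1, Suz12 and Eed stood at 101.6%, 97.2% and 96.3% of their growing level in Zar1/2-null oocytes as deposited. Without the factors these 3 stood at 149%, 144% and 142%, and Rnf2 at 49.6% against 107% in WT.

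During WT maturation from GV to MII all 8 members were called lower on the deposited values, as were 93.4% of all genes, and none was called higher (0.104% of all genes). The sign of this difference rests on the ERCC factors, which were 0.836 and 0.697 in WT GV and 0.225 and 0.228 in WT MII libraries: with them removed, Bmi1 turned from -0.73 to 1.02, Ezh2 from -0.87 to 0.87, Cbx2 from -1.08 to 0.52, Ezh1 from -1.11 to 0.33, Suz12 from -1.46 to 0.25 and Eed from -1.55 to 0.18. Rybp kept its direction, at -2.45 as deposited and at -1.05 without the factors, and so did Pcgf6, at -1.86 and -0.13. Relative to the median of all genes, -1.28, Rybp was at -1.16 and Pcgf6 at -0.58, Bmi1 at 0.56 and Ezh2 at 0.41. Rnf2 lay close to the median, at -1.15 as deposited and at 0.56 with the factors removed. On the deposited scale WT MII oocytes held 13.7% of the GV level of Rybp, 26.9% of Pcgf6, 43.8% of Rnf2, 54.2% of Ezh2 and 59.9% of Bmi1.

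On the deposited scale, Zar1/2-null oocytes labelled MII held 34.6% of the Rnf2 GV level, 24.0% of Suz12, 23.2% of Pcgf6 and 21.5% of Rybp. They held 52.7% of Ezh2, 87.7% of Bmi1 and 103% of Cbx2. Without the ERCC factors these values were 72.7% for Rnf2, 49.8% for Suz12, 48.7% for Pcgf6, 44.7% for Rybp, 109.9% for Ezh2, 183% for Bmi1 and 215% for Cbx2, so that Ezh2 and Bmi1 moved from below to above their GV level. Over the 9 members that passed the filter, Rnf2 among them, the median was 38.4% for WT and 34.6% for Zar1/2-null oocytes. The Zar1/2-null median is the value of Rnf2 itself, whose decrease chose the family. Over all genes compared, 5834 in WT and 6401 in Zar1/2-null oocytes, the median was 32.5% and 50.2%. These are not the same set of genes. The summed FPKM of the 10 members was 765 ± 10.3 in WT and 506 ± 28.5 in Zar1/2-null growing oocytes, 681 ± 78.8 and 384 ± 4.28 at GV, and 291 ± 0.0293 and 171 ± 1.72 at MII (SD, n = 2). Without the ERCC factors, the sums were 765 ± 10.3 and 618 ± 9.90, 888 ± 10.8 and 688 ± 36.4, and 1288 ± 12.5 and 643 ± 58.1. The Zar1/2-null sum was the lower one at each stage on both scales, while the WT sum went down with maturation on the deposited scale and up without the factors. These sums include Rnf2 and only describe the family that its decrease chose.

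**Figure D4:**
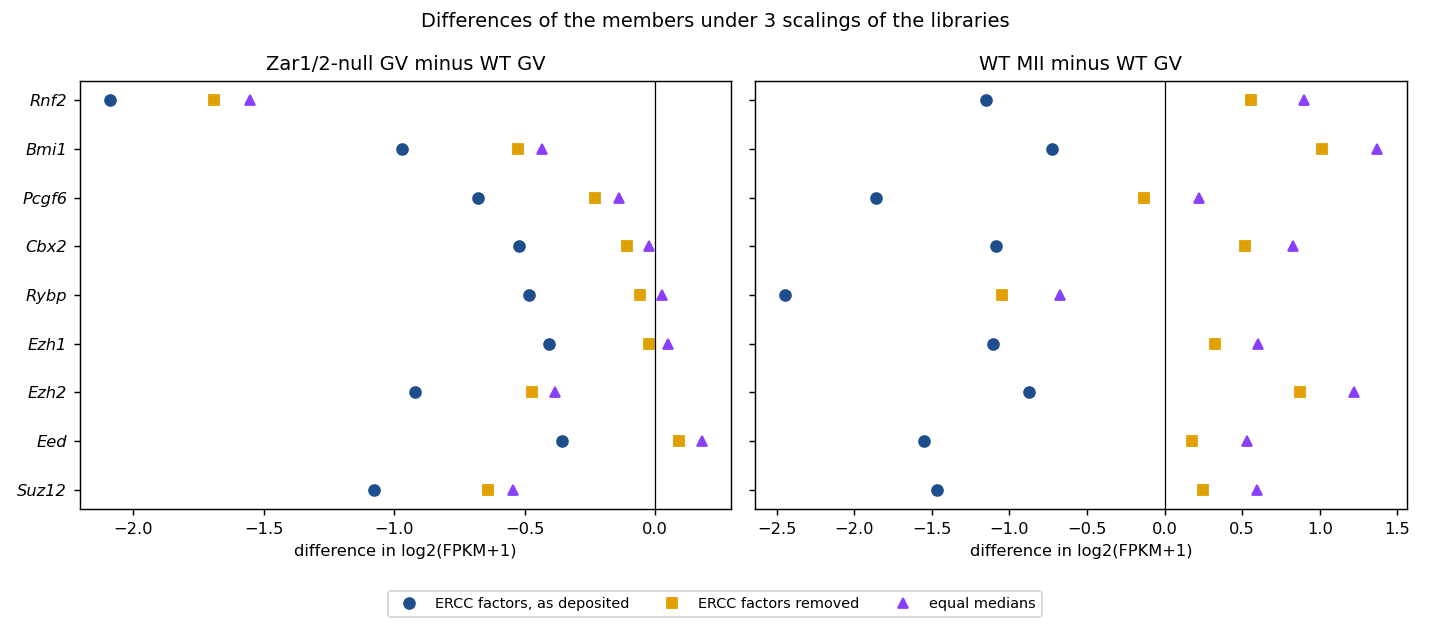
Differences in log2(FPKM + 1) of Rnf2 and the 8 tested members between Zar1/2-null and WT GV oocytes (left) and between WT MII and WT GV oocytes (right) under 3 scalings of the libraries: ERCC factors as deposited (circles), factors removed (squares) and equal medians (triangles). On the left Rnf2, Bmi1, Ezh2, Suz12, Pcgf6 and Cbx2 kept a negative sign under all 3. Eed turned positive without the factors, and Rybp and Ezh1 with equal medians. With equal medians 1 of 4 tested PRC1 members other than Rnf2 and 0 of 4 PRC2 members were called lower, against 11.4% of all genes. On the right Rybp alone stayed lower under all 3.

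Other genes of the Polycomb machinery were examined as 3 lists of 51 genes, of which 41 passed the filter. In growing oocytes 10 of them (24.4%, as in all genes) were called lower and 4 (9.76% against 10.6%) higher in Zar1/2-null oocytes. At GV 18 (43.9% against 40.6%) were lower and none was higher (2.83%), and at MII 6 (14.6% against 10.3%) were lower and 11 (26.8% against 21.5%) higher. Without the ERCC factors 3 of them were lower and 8 higher in growing (7.32% and 19.5%, against 12.3% and 14.9% of all genes). At GV 6 were then lower and 1 higher (14.6% and 2.44%, against 13.5% and 7.19%), and at MII 14 lower and 8 higher (34.1% and 19.5%, against 23.4% and 24.6%). On the deposited values their median log2 differences were -0.08, -0.40 and -0.07, against -0.16, -0.38 and 0.06 over all genes. Yaf2, the paralog of Rybp in variant PRC1, had the largest decrease of the 41 at each stage. It was at 28.1 and 30.4 FPKM in WT growing and 4.62 and 3.72 FPKM in Zar1/2-null growing libraries, a log2 difference of -2.56 (SE 0.155, adjusted p = 2.57e-06, limma). At GV it was at 30.2 and 25.5 FPKM against 8.07 and 7.36 FPKM (-1.72), and at MII at 19.8 and 16.6 FPKM against 6.14 and 5.51 FPKM (-1.49). Rybp, in contrast, had higher values in both Zar1/2-null growing libraries, a difference that did not pass.

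Among the other PRC1 genes, 4 of 27 tested were lower and 4 higher in Zar1/2-null growing oocytes, 9 lower and 0 higher at GV, and 3 lower and 6 higher at MII. As shares, 14.8% and 14.8%, 33.3% and 0%, and 11.1% and 22.2% stood against 24.4% and 10.6%, 40.6% and 2.83%, and 10.3% and 21.5% of all genes. Once the factors were removed the counts were 1 lower and 5 higher, 4 and 1, and 10 and 5. As shares these were 3.7% and 18.5%, 14.8% and 3.7%, and 37% and 18.5%. Over all genes they were 12.3% and 14.9%, 13.5% and 7.19%, and 23.4% and 24.6%. Cbx8, another reader subunit, rose from 1.27 and 1.98 FPKM in WT growing to 4.78 and 5.37 FPKM in Zar1/2-null growing libraries (log2 difference 1.22, adjusted p = 0.00204, limma). Fbrs (1.05), a partner in variant PRC1, and L3mbtl2 (0.72), a subunit of the PCGF6 complex, were also higher there, and Auts2 (-0.85), a subunit of variant PRC1, was lower. At GV, Wdr5, a protein shared with several chromatin complexes, was at 44.8 and 43.3 FPKM in WT and 16.2 and 18.4 FPKM in Zar1/2-null libraries (-1.30, adjusted p = 0.000228, limma). At MII, Csnk2a1 (-0.65), a kinase subunit, was lower and Tfdp1 (0.75), the dimer partner of E2F factors, higher.

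Among the other PRC2 genes, 2 of 7 tested were lower in Zar1/2-null growing oocytes and none was higher, 5 were lower and none was higher at GV, and 1 was lower and 2 higher at MII. The shares called lower were 28.6%, 71.4% and 14.3%, against 24.4%, 40.6% and 10.3% of all genes. Those called higher were 0%, 0% and 28.6%, against 10.6%, 2.83% and 21.5%. After removal of the ERCC factors 1 was lower and 2 higher in growing, none was called at GV (0 lower and 0 higher), and 2 were lower and 2 higher at MII. As shares these were 14.3% and 28.6%, 0% and 0%, and 28.6% and 28.6%. Over all genes they were 12.3% and 14.9%, 13.5% and 7.19%, and 23.4% and 24.6%. Aebp2, an accessory subunit of PRC2, was lower in growing (-1.06) and MII oocytes (-1.19), with 8.64 and 12.9 FPKM in WT growing against 5.28 and 3.87 FPKM in Zar1/2-null growing libraries. Its GV values also lay lower, at 7.57 and 7.79 FPKM in Zar1/2-null against 20.2 and 13.4 FPKM in WT libraries. Ezhip, an inhibitor of EZH2, was at 151 and 191 FPKM in WT MII and at 286 and 309 FPKM in Zar1/2-null MII libraries (0.81, adjusted p = 0.00694, limma). The third list holds 5 tested genes that remove ubiquitin from histone H2A or assist in it (Bap1, Asxl1, Usp16, Usp21 and Mysm1) and the demethylases of histone H3 Kdm6a and Kdm6b. Of these 7, 4 were lower in growing and 4 at GV, with none higher at either stage, and 2 were lower and 3 higher at MII. The shares called lower were 57.1%, 57.1% and 28.6%, against 24.4%, 40.6% and 10.3% of all genes. Those called higher were 0%, 0% and 42.9%, against 10.6%, 2.83% and 21.5%. On values without the factors the lower and higher counts were 1 and 1, 2 and 0, and 2 and 1. As shares these were 14.3% and 14.3%, 28.6% and 0%, and 28.6% and 14.3%, beside the shares of all genes given above for that scaling. Mysm1, a histone H2A deubiquitinase, was at 19.3 and 17.6 FPKM in WT growing and 10.0 and 8.18 FPKM in Zar1/2-null growing libraries (-0.95), and was lower at GV too (-1.21). Asxl1, the partner of BAP1, was at 24.8 and 25.2 FPKM in WT GV and 12.7 and 9.18 FPKM in Zar1/2-null GV libraries (-1.14). Bap1 itself rose at MII, from 1.94 and 2.24 FPKM to 6.55 and 6.41 FPKM (1.28, adjusted p = 5.49e-05, limma), as did the deubiquitinase Usp21 (0.76). At GV, Bap1 went the other way, with 16.0 and 15.7 FPKM in WT and 8.32 and 7.66 FPKM in Zar1/2-null libraries. The calls of Auts2 and Usp21 were lost with the ERCC factors removed. Leaving out 1 library ended the call of Aebp2 in growing oocytes (WT growing replicate 2, adjusted p = 0.0672, limma, or Zar1/2-null growing replicate 2, 0.0642) and, at MII, those of Csnk2a1 (WT MII replicate 2, 0.0573, or Zar1/2-null MII replicate 2, 0.105), Ezhip (WT MII replicate 1, 0.0708), Usp21 (WT MII replicate 1, 0.210, or Zar1/2-null MII replicate 2, 0.154) and Tfdp1 (any of the 4 MII or the 2 WT growing libraries, 0.0521 to 0.152).

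The genes whose levels followed Rnf2 most closely over the 12 libraries, among the 4325 genes averaging 10 FPKM or more, were Coq10b (Pearson r = 0.994), Tra2b (0.993), Hells (0.990), 0610037P05Rik (0.989) and Rad17 (0.988). The median r of all these genes with Rnf2 was 0.646. The 12 libraries share stages and genotypes, and these genes were chosen by their likeness to Rnf2. Of the members, Ezh2 was closest at r = 0.965 (rank 38 of 4325) and Suz12 next at 0.901 (rank 260), followed by Pcgf6 at 0.856, Bmi1 at 0.810 and Eed at 0.777. Rybp at 0.642 and Cbx2 at 0.466 lay under the median of all genes. With the ERCC factors removed, r was 0.773 for Ezh2, 0.785 for Suz12, 0.265 for Bmi1 and -0.295 for Cbx2. Hells went from rank 3 to rank 28.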

How the data were processed

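The authors lysed 10 oocytes per library with ERCC spike-in RNA, primed cDNA with oligo-dT by Smart-seq2, so that mRNAs with short poly(A) tails may be captured less well, and trimmed reads to 50 bases. They mapped them to mm9 with TopHat2 2.1.1, kept uniquely mapped reads, estimated FPKM with Cufflinks 2.2.1 and multiplied each library by an ERCC factor. The deposited FPKM table holds 23230 genes and 12 libraries and no counts, so that the reads behind a value, and the precision they give, are unknown. Columns without a sample numbered 0. The factors were recovered from the values and removed in an alternative.

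Genes with at least 1 FPKM in a library (11502) were fitted on log2(FPKM + 1), which understates changes of low genes, with limma 3.58.1 in R 4.3.3 (1 term per group, eBayes with a trend) and tested at a Benjamini-Hochberg adjusted p of 0.05. The fit was tested on simulated data. The labels do not say that replicates came from separate animals, so that p-values measure the spread between these libraries, which may be technical. The labels number replicates 1 and 2 in each group, and these numbers were not taken to pair libraries. The ERCC factors nevertheless appear to link same-numbered libraries, as described below.

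Members and gene lists were chosen with earlier results of these data known. Named genes are the 10 members, Zar1 and Zar1l, up to 4 other Polycomb genes per direction and stage (largest log2 difference among those called, libraries not overlapping, the higher group averaging 5 FPKM or more) and the 5 genes most like Rnf2. Positions and 3′ UTRs came from GENCODE vM1 on mm9, and copies of transcripts from minimap2 2.31. Alternatives were no ERCC factors, equal medians, a pseudocount of 0.1 FPKM, no filter, a replicate block, eBayes without a trend, 1 stage alone and leaving out each library. A crossed block at GV was added after seeing the data. Marker lists of blood (7 genes) and stroma (5 genes) summed to at most 3.07 and 11.3 FPKM in a library, led by Cd68 and Pecam1.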

Additional observations from a re-analysis of the deposited data

Results flagged for a closer look

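The effect of the Zar1/2-null genotype on Cbx2 differed between MII and GV oocytes by 1.13 on the log2 scale (limma interaction, adjusted p = 0.0136). On the deposited values Cbx2 was lower in both Zar1/2-null GV libraries and higher in both Zar1/2-null MII libraries than in WT. With the ERCC factors removed the genotypes overlapped for Cbx2 at both stages, and the difference was 0.55 (adjusted p = 0.343, limma). For Rybp the effect differed between GV and growing oocytes by -0.82 (limma interaction, adjusted p = 0.0388). The deposited Rybp values were higher in both Zar1/2-null growing libraries and lower in both Zar1/2-null GV libraries. With the ERCC factors removed the genotypes overlapped for Rybp at GV but not in growing oocytes, and the difference was -0.67 (adjusted p = 0.236, limma). Rybp has a nearly identical second locus, and how reads of that locus were assigned was not tested.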

How the results depend on the processing

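With 2 libraries a group and no read counts, small differences of the lower members could not be resolved. The scaling of the libraries had the largest effect, as counts of the 8 other members show. With the ERCC factors removed, and with the share of all genes in brackets, the number lower in Zar1/2-null oocytes was 2 in growing (12.3%), 2 in GV (13.5%) and 6 in MII oocytes (23.4%). None (0) was higher at MII (24.6%). For WT oocytes 0 were lower (3.23%) and 1 higher (3.66%) at GV than in growing and 1 lower (47.6%) and 2 higher (19.7%) at MII than at GV. The Zar1/2-null effect then differed between MII and GV for 4 members (6.46% of all genes more negative and 15.1% more positive). It differed between GV and growing for 0 (3.72% and 2.22%). With equal medians the corresponding values were 2, 1, 6, 0, 0, 1, 1, 6, 4 and 0, and 1 member (Rybp, adjusted p = 0.0496, limma) was higher in Zar1/2-null growing oocytes. At that scaling 11.9%, 11.4% and 23.6% of all genes were lower in Zar1/2-null growing, GV and MII oocytes. In WT MII against WT GV oocytes 40.8% were lower and 29.5% higher, and 15.8% were higher in Zar1/2-null growing oocytes. At MII 25% were higher in Zar1/2-null oocytes, and in WT GV against growing 3.43% were lower and 3.24% higher. The effect was more negative for 8.83% and more positive for 14.5% at MII against GV. At GV against growing these shares were 3.27% and 2.41%. Without the filter 1 (Ring1, at under 0.25 FPKM) was higher in Zar1/2-null growing oocytes, 3 were lower there since Pcgf6 was lost (adjusted p = 0.0542, limma), 0 were higher at MII and 0 differed between MII and GV. Of the 23230 genes then tested, 1248 were higher and 2645 lower in growing, and 1983 higher at MII. The effect was more negative at MII than at GV for 94 and more positive for 2995. With a pseudocount of 0.1 FPKM, with eBayes without a trend and in the 4 MII libraries alone, 5 were lower at MII, Bmi1 and Eed being added. Of all genes, 1745 of 11502, 1213 of 11502 and 1223 of 7245 were then lower, against 1183 of 11502 in the main fit. The pseudocount left 0 lower in WT GV than growing oocytes and 0 differing between GV and growing. Of all genes it left 2167 lower in WT GV oocytes, against 3306. The effect was then more negative at GV than in growing for 643 genes, against 1301, and more positive for 176, against 297. At GV the count of 6 lower became 4 with that pseudocount, without the filter and in the 4 libraries alone, where Rybp and Ezh1 were lost. Of all genes, 4206 of 11502, 4209 of 23230 and 3397 of 10526 were lower in these settings in turn, against 4666 of 11502.

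Same-numbered libraries of 2 groups deviated with correlations over genes of -0.117 to 0.163 over 15 pairs of groups, 4 of them over 0.1. The numbers were not taken to pair the samples. Such a correlation does not see a shift of a whole library. Both WT growing libraries had an ERCC factor of 1, although the study lists different ERCC shares for them. The deposited scale thus makes no correction between those 2 libraries. The WT GV libraries have the same listed ERCC share but factors of 0.836 and 0.697. The factors thus appear to be set against the same-numbered WT growing library. Such a scaling links same-numbered libraries in every group. The main fit has no replicate term, so that this offset remains in its spread. With the replicate number as a block, 5 members were lower at MII and 2 differed between MII and GV, and no other count changed. Of all 11502 genes, 1266 were then lower at MII, against 1183 in the main fit. The effect was more negative at MII than at GV for 86 genes, against 74, and more positive for 4069, against 3903. Crossing the numbers at GV, where the correlation was -0.117, gave 7 lower and 0 higher members there. Of all 11502 genes, 5205 were then lower and 351 higher, against 4666 and 325 in the main fit. Leaving out each library gave 2 to 4 members lower in Zar1/2-null growing, 3 to 6 in GV and 3 to 4 in MII oocytes, 0 to 1 higher at MII, 0 to 2 lower in WT GV than growing, and 0 to 2 differing between MII and GV and between GV and growing.

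Signs turned as follows, with the ERCC factors removed and then with equal medians, on the log2 scale. Between genotypes, Eed at GV was 0.092 and 0.18, Rybp at MII -0.081 and -0.066, and with equal medians alone Rybp and Ezh1 at GV were 0.025 and 0.049. For WT GV against growing, Rnf2 was 0.10 and 0.084, Cbx2 0.28 and 0.25 and Ezh1 0.23 and 0.19. For WT MII against GV, Rnf2 was 0.56 and 0.90, Bmi1 1.02 and 1.37, Cbx2 0.52 and 0.83, Ezh1 0.33 and 0.60, Ezh2 0.87 and 1.22, Eed 0.18 and 0.53 and Suz12 0.25 and 0.60, and Pcgf6 was 0.22 with equal medians. For the effect at MII against GV, Bmi1 was -0.15 and -0.23, Rybp -0.022 and -0.091 and Ezh1 -0.50 and -0.53. For the effect at GV against growing, Bmi1 was 0.044 and 0.12, Pcgf6 0.012 and 0.095, Ezh2 0.048 and 0.13 and Eed 0.10 and 0.18. Leaving out single libraries turned uncalled differences, with ranges of -0.018 to 0.30 for Bmi1 and -0.11 to 0.17 for Eed in WT GV against growing, -0.14 to 0.069 for Ezh2 at MII against GV, and -0.28 to 0.041 for Bmi1, -0.32 to 0.017 for Pcgf6 and -0.31 to 0.18 for Eed at GV against growing. Of 972 such values over the members and the named other Polycomb genes, 894 were kept. For Rnf2, which was not tested, this means the same direction and a shift under 1 SE. For the other genes it means the same direction and the same side of the threshold.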
